A study of Mus musculus with 2 samples.

Results

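Described here are 10 scavenger and endocytic receptor genes in mouse liver: Stab1, Stab2, Mrc1, Lyve1, Fcgr2b, Clec4f, Marco, Cd163, Msr1 and Scara5. They were taken by symbol, and all 10 were found among the 32286 genes of the deposited table. Single-nucleus RNA was counted by droplet-based 3′ sequencing. The nuclei came from 1 wild-type and 1 Cox10-/- regenerating liver, with no replicate of either. Every mouse had a floxed Cox10 allele and was given AAV8-GFP or AAV8-Cre behind the eye, adeno-associated viruses that deliver genes mainly to hepatocytes. The labels do not pair a virus with a liver, and give no age or sex. Partial hepatectomy, removing 70% of the liver, followed 4 weeks after the virus. The treatment text has the livers taken 4 days after surgery, whereas the sample characteristics say 4 weeks. COX10 is an enzyme on the path to heme A, a cofactor of cytochrome c oxidase. The Cox10 transcript stood at 34.7 CPM (a gene's transcript count scaled to the total count of the summed nuclei) in wild-type and 38.8 CPM in Cox10-/- hepatocyte-like nuclei, but the deleted exon is not named, so a 3' count does not check the deletion.

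Liver sinusoidal endothelial cells and Kupffer cells, the resident macrophages of the liver, clear waste from blood. Endothelial receptors take up soluble ligands such as hyaluronan, denatured collagen, modified lipoproteins and small immune complexes through clathrin-coated pits, while macrophage receptors also bind particles, bacteria, haemoglobin complexes and dying cells. In the set, STAB1 and STAB2 are stabilins, large endocytic receptors of which STAB2 is the main hyaluronan receptor of the sinusoid. LYVE1 is another hyaluronan receptor, FCGR2B the inhibitory IgG receptor, and MRC1 the mannose receptor. MSR1, MARCO and SCARA5 are class A scavenger receptors, of which SCARA5 binds ferritin. CLEC4F is a lectin of rodent Kupffer cells and CD163 takes up haemoglobin bound to haptoglobin.

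By the GENCODE vM21 annotation of mm10 (GRCm38), all 10 are protein-coding genes: Stab1 at chr14:31139013-31168641, Stab2 at chr10:86841198-87008025, Mrc1 at chr2:14229392-14332057, Lyve1 at chr7:110850607-110863239, Fcgr2b at chr1:170958617-170976547, Clec4f at chr6:83644542-83656187, Marco at chr1:120474538-120505024, Cd163 at chr6:124304656-124330527, Msr1 at chr8:39581685-39642673 and Scara5 at chr14:65666403-65764826. RefSeq promoter entries (GRCm38.p6) matched 7 of the 10 genes, with none for Lyve1, Msr1 or Scara5. A promoter is shown for each of 3 patterns of expression in the results: Stab1 for genes highest in endothelial-like nuclei, Cd163 for genes highest in myeloid-like nuclei, and Mrc1 for a gene high in both. The stretches run 5′ to 3′ on the gene's strand and end before the gene's GENCODE vM21 start: Stab1 at chr14:31168642-31168891 (minus strand), Mrc1 at chr2:14229164-14229391 (plus strand) and Cd163 at chr6:124304401-124304650 (plus strand). Capitals mark the 1 match to a searched motif.
Stab1: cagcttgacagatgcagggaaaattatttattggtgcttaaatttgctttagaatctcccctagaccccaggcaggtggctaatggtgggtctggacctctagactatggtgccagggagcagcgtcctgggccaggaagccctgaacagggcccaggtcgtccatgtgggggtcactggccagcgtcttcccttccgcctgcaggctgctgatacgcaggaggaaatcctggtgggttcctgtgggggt
Mrc1: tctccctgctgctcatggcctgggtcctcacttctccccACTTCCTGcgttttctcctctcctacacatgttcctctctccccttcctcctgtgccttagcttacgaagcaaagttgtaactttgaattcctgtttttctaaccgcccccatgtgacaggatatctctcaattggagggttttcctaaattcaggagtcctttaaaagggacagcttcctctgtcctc
Cd163: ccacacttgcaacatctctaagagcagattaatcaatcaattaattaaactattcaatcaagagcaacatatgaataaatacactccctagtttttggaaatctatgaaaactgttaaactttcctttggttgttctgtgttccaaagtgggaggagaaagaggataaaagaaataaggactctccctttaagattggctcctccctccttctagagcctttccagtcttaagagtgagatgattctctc

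Both strands of the 250 bases before the RefSeq start of each of the 7 genes were searched for 5 sets of letters. GAGGAAGT, a PU.1 type of site, occurs in 2.44% of 27025 mouse promoters of that length. CAGGAAGT, an ETS type that shares its last 7 letters with the first, occurs in 2.73%. The letters AGATAA of the GATA factors occur in 10.25%. The AP-1 type TGACTCA occurs in 4.43% and the MAF type TGCTGAC in 3.72%. Among the 7 genes the search found 1 match, CAGGAAGT on the opposite strand of the Mrc1 stretch, beginning 211 bases before the start. The stretches of the other 6 genes held none of these letters.

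Transcripts were counted by unique molecular identifiers (UMIs). There were 17703804 of them in 5448 wild-type nuclei (median 2853.5) and 14476400 in 5167 Cox10-/- nuclei (median 2291). The libraries shared 7 barcodes. Clusters, built without the 10 receptors, were named from marker genes. The hepatocyte-like share was 95.3% of wild-type and 33.8% of Cox10-/- nuclei, and these nuclei lay mostly in different clusters: 1, 2, 4, 9 and 11 in the wild type, 5 and 7 in Cox10-/-. Endothelial-like nuclei numbered 45 against 1419, myeloid-like 39 against 618, stellate-like 33 against 751, lymphoid-like 18 against 118 and cholangiocyte-like 10 against 192. Unnamed clusters took 2.0% and 6.29% of nuclei. The endothelial, stellate and myeloid names were borne out by 19 of 19, 15 of 16 and 11 of 12 markers in the wild type, where Col1a1 and Ccr2 were at 0, and by all of them in Cox10-/-. The wild-type lymphoid-like nuclei had 10 of 18 markers, the B cell genes Cd79a, Cd79b, Ms4a1, Pax5, Ebf1, Bank1 and Ighm being at 0 with Gzma. Hepatocyte markers summed to between 7483 and 16580 CPM in nuclei of the other lineages, against 18710 and 21380 CPM in hepatocyte-like nuclei, so these markers were counted in every lineage. With 1 library a group no test was possible; ranges in parentheses are exact 95% intervals that cover counting error only.

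Each gene's level was measured as CPM over the summed UMIs of a lineage, and is compared here between lineages within a gene. In the Cox10-/- library, which held enough nuclei of every lineage, 4 receptors were highest in endothelial-like nuclei (Stab1, Stab2, Lyve1, Fcgr2b), 5 in myeloid-like nuclei (Mrc1 by a narrow margin, Msr1, Clec4f, Cd163, Marco) and Scara5 in hepatocyte-like nuclei. The endothelial and myeloid genes differ in how sharply they separate: Stab2 and Cd163 were over 50 times the level of the next lineage, while Mrc1 and Msr1 were within 1.5-fold between endothelial and myeloid.

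**Figure D1:**
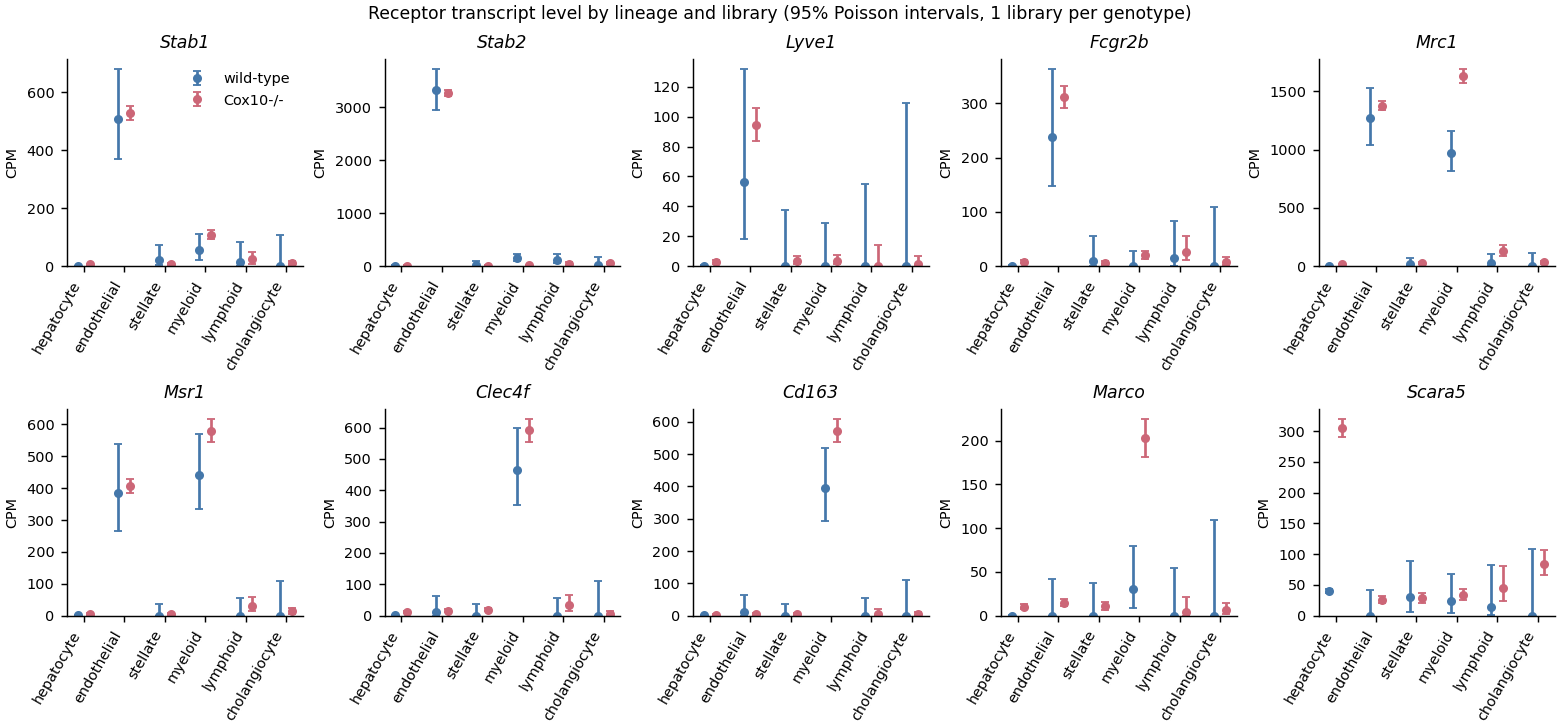
Levels of the 10 receptors by lineage (x axis) in CPM (y axis, a separate scale per gene) in the wild-type (blue) and Cox10-/- (red) libraries, points being the level of the summed nuclei and bars 95% Poisson intervals. Stab2 reached 3326 and 3272 CPM in endothelial-like nuclei and stayed at or under 147 CPM in the other 5 lineages plotted, while Scara5 stood at 305 CPM in Cox10-/- hepatocyte-like nuclei against 40.1 CPM in wild-type ones.

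Stab2, the hyaluronan receptor, was at 3326 CPM (2957 to 3729) in wild-type and 3272 CPM (3209 to 3335) in Cox10-/- endothelial-like nuclei, where 97.8% and 88.0% of nuclei held a UMI. In the other named lineages it ranged from 9.94 to 147 CPM in the wild type and from 8.73 to 61.0 CPM in Cox10-/-, and the unnamed nuclei had it at 1045 and 918 CPM. The Cox10-/- endothelial level was 53.6 times (40.6 to 72.3) that of cholangiocyte-like nuclei, the next lineage, where 6 of 192 nuclei held all 50 UMIs. Endothelial-like nuclei held 88.9% of all Stab2 UMIs in the Cox10-/- library. In the wild type they held 32.89%, and the unnamed nuclei 44.85%. Neighbours from cholangiocyte-like to lymphoid-like to myeloid-like had overlapping intervals.

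Stab1, the other stabilin, was at 509 CPM (371 to 681) in wild-type and 528 CPM (503 to 554) in Cox10-/- endothelial-like nuclei. Its second lineage was myeloid, at 54.2 CPM (21.8 to 112) and 108 CPM (92.5 to 124). Endothelial-like nuclei thus exceeded myeloid-like ones 4.91-fold (4.21 to 5.76) in Cox10-/-, and the myeloid level in turn exceeded that of lymphoid-like nuclei 4.70-fold (2.12 to 13.0). Below that, lymphoid-like, cholangiocyte-like, stellate-like and hepatocyte-like nuclei followed, each with an interval overlapping its neighbour's.

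Lyve1 was sparsely captured, with 5 UMIs in the 45 wild-type endothelial-like nuclei (56.6 CPM, 18.4 to 132) and 299 UMIs in the Cox10-/- ones (94.3 CPM, 83.9 to 106). In the wild type it was at 0.237 CPM in hepatocyte-like nuclei and at 0 in the remaining named lineages. There a count of 0 allows from 23.2 CPM (myeloid-like) up to 88.7 CPM (cholangiocyte-like), which passes the endothelial level. In the other named Cox10-/- lineages it did not exceed 3.57 CPM. The Cox10-/- endothelial level was thus 26.4 times (12.0 to 72.6) that of the next named lineage. In the unnamed nuclei Lyve1 was at 13.03 CPM (5 UMIs) and 24.5 CPM (30 UMIs). LYVE1 is best known from lymphatic endothelium. Of 4 lymphatic markers Pdpn, Mmrn1 and Ccl21a were at 0 in the endothelial-like nuclei of both libraries, and Prox1, which hepatocytes also express, was at 67.9 and 41.6 CPM there, beside 271 and 238 CPM in hepatocyte-like nuclei.

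Fcgr2b, which brakes signalling by IgG complexes in immune cells and removes them from blood in sinusoidal endothelium, was at 238 CPM (147 to 363) and 311 CPM (292 to 331) in endothelial-like nuclei. The Cox10-/- level was 11.7 times (5.64 to 29.1) that of lymphoid-like nuclei, at 26.7 CPM, whose interval overlapped that of myeloid-like nuclei at 19.6 CPM. In the wild-type myeloid-like nuclei Fcgr2b was at 0 in 39 nuclei, where a count of 0 allows up to 23.2 CPM.

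The mannose receptor gene Mrc1 was shared. It stood at 1267 CPM (1043 to 1525) in wild-type endothelial-like and 974.7 CPM (812 to 1160) in wild-type myeloid-like nuclei, with overlapping intervals. In Cox10-/- the order was the other way, at 1378 CPM (1337 to 1419) in endothelial-like and 1630 CPM (1569 to 1692) in myeloid-like nuclei, a ratio of 1.18 (1.13 to 1.24). This order turned with a limit of 10% mitochondrially encoded UMIs, at 1148 CPM in myeloid-like and 1511 CPM in endothelial-like nuclei, and the shares of nuclei with a UMI after thinning to 1000 UMIs were level, at 66.6% and 66.7%. Endothelial-like nuclei held 53.1% of the library's Mrc1 UMIs and myeloid-like ones 33.3%. The next lineage, lymphoid-like at 130 CPM, was 10.6-fold (7.59 to 15.4) below endothelial.

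Msr1, scavenger receptor A, was shared in the same way. It was at 385 CPM (266 to 538) in wild-type endothelial-like and 441 CPM (334 to 571) in wild-type myeloid-like nuclei, again overlapping. The Cox10-/- values were 406 CPM (384 to 429) and 581 CPM (545 to 618), with the myeloid level 1.43 times (1.31 to 1.56) the endothelial one. Other lineages lay between 4.85 and 30.5 CPM in Cox10-/-. In the wild type Msr1 was at 0.710 CPM in hepatocyte-like nuclei and at 0 in the remaining lineages. There a count of 0 allows from 30.35 CPM (stellate-like) up to 88.7 CPM (cholangiocyte-like).

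Clec4f and Cd163 were highest in myeloid-like nuclei of both libraries. Clec4f was at 464 CPM (354 to 597) in wild-type and 591 CPM (555 to 629) in Cox10-/- myeloid-like nuclei, 17.2 times (9.03 to 37.8) the next Cox10-/- lineage. Cd163 was at 394.5 CPM (294 to 519) and 572 CPM (537 to 610), the latter 95.5 times (60.9 to 159) the next lineage. The Cox10-/- share of UMIs found in myeloid-like nuclei was 75.8% for Clec4f and 83.1% for Cd163. Clec4f remained at 6.10 to 34.3 CPM in every other Cox10-/- lineage, all neighbours overlapping, whereas Cd163 was at 2.28 to 5.99 CPM there.

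Marco, a receptor for bacteria and particles, was at 30.9 CPM (8.43 to 79.2; 4 UMIs) in wild-type and 203 CPM (182 to 225; 341 UMIs) in Cox10-/- myeloid-like nuclei. Its level in the other Cox10-/- lineages was 3.81 to 14.5 CPM. The share of myeloid-like nuclei with a Marco UMI was 5.13% (0.627 to 17.3) against 23.8% (20.5 to 27.3).

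Depth differed between lineages, so each nucleus was also thinned to 1000 UMIs. In Cox10-/- this left out 5 of 1419 endothelial-like and 8 of 618 myeloid-like nuclei. Thinned shares in endothelial-like nuclei were 79.8% for Stab2, 66.7% for Mrc1, 37.0% for Stab1, 27.2% for Fcgr2b, 27.1% for Msr1 and 8.91% for Lyve1. In hepatocyte-like nuclei, which should lack them, the shares ran from 0.238% for Lyve1 to 2.44% for Mrc1. Thinned myeloid shares were 66.6% for Mrc1, 40.2% for Clec4f, 37.7% for Msr1 and 11.6% for Marco, with Cd163 between 26.4% and 33.8% by its interval. Those of Clec4f, Msr1, Marco and Cd163 in hepatocyte-like nuclei lay between 0.178% and 2.02%.

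At that depth, 96.2% of Cox10-/- endothelial-like nuclei held at least 1 of the 6 endothelial-expressed receptors, 48.7% held at least 3 and 0.283% all 6. Of the nuclei with a Stab2 UMI 69.3% also held Mrc1, against 56.3% of those without, and 26.1% held Msr1, against 31.1%. These shares describe 1 library, were not tested, and come from nuclei that share it. Of myeloid-like nuclei, 88.9% held at least 1 of the 5 myeloid-expressed receptors and 28.7% at least 3. Nuclei with Cd163 held Marco in 18.6% of cases, against 8.67% of those without.

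The next comparison asked whether receptor levels differed between the Cox10-/- and wild-type libraries within a lineage. A gene was called when its CPM ratio was at least 2 with the whole interval beyond 1.5-fold, for genes that had 20 or more UMIs in the pair of sums. In endothelial-like nuclei none of the 10 receptors was called, against 1.31% of 9968 genes (0.632% higher, 0.682% lower). These nuclei had a median of 17.7% mitochondrially encoded UMIs in the wild type and 9.29% in Cox10-/-. With those genes left out of the library size, the count called was also 0. The ratios of Cox10-/- over wild type were 0.984 for Stab2 (0.876 to 1.11), 1.04 for Stab1 (0.772 to 1.43), 1.09 for Mrc1 (0.901 to 1.32), 1.06 for Msr1 (0.752 to 1.53), 1.31 for Fcgr2b (0.852 to 2.13) and 1.67 for Lyve1 (0.706 to 5.17). The Stab2 interval is narrow around 1, while that of Lyve1 reaches past 5-fold, so these counts do not exclude a difference of that size. The other receptors, Marco, Scara5, Clec4f and Cd163, had 0 or 1 UMI in the wild-type endothelial-like nuclei. Their intervals were too wide for a call in either direction, so the absence of a call says little about them.

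That result rests on which nuclei counted as endothelial. An unnamed cluster of 93 wild-type and 12 Cox10-/- nuclei carried endothelial markers at 3285 and 3262 CPM beside hepatocyte markers at 15900 and 15180 CPM. Its wild-type nuclei had Stab2 at 1184 CPM, Mrc1 at 424 CPM, Msr1 at 121 CPM and Stab1 at 115 CPM, and 18.1% of the cluster ranked among the highest doublet scores. Counting it as endothelial, an alternative chosen after seeing the data, called 6 of 10 tested receptors as higher in Cox10-/-, against 13.8% of 10293 genes (6.37% higher, 7.43% lower): Stab1 (ratio 2.61), Mrc1 (2.25), Lyve1 (3.92), Fcgr2b (2.25), Msr1 (2.24) and Marco (0 UMIs in the wild type), with Stab2 at 1.96. The part of hepatocyte RNA in these ratios was not tested.

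In myeloid-like nuclei 2 of 9 tested receptors were called, 1 higher and 1 lower, against 6.54% of 8305 genes (1.96% higher, 4.58% lower). Marco was 6.55-fold (2.54 to 24.2) higher in Cox10-/-. Mrc1 (ratio 1.67, 1.40 to 2.02), Cd163 (1.45, 1.09 to 1.96) and Msr1 (1.32, 1.01 to 1.75) had intervals above 1 without reaching 2-fold, and Clec4f (1.27, 0.981 to 1.68) and Stab1 (1.99, 0.945 to 5.01) had intervals that held 1.

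The lower gene was Stab2, at 147 CPM (88.5 to 230; 19 UMIs) in wild-type and 21.4 CPM (14.99 to 29.6; 36 UMIs) in Cox10-/- myeloid-like nuclei, 6.87-fold lower (3.72 to 12.3). Of 39 wild-type nuclei 15 held Stab2, 12 of them by 1 UMI. Their summed endothelial markers were 344 CPM (193 to 568), beside 315 CPM (208 to 458) in the 24 nuclei without Stab2. In Cox10-/- 15 of 618 nuclei held Stab2, with endothelial markers at 1467 CPM (1146 to 1851), beside 436 CPM (404 to 469) in the rest. With Leiden clustering at a resolution of 0.5 the Stab2 ratio was 0.762 and no longer called, and without the nuclei of highest doublet score it was 0.344 and called. The part of endothelial RNA in it was not tested.

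**Figure D2:**
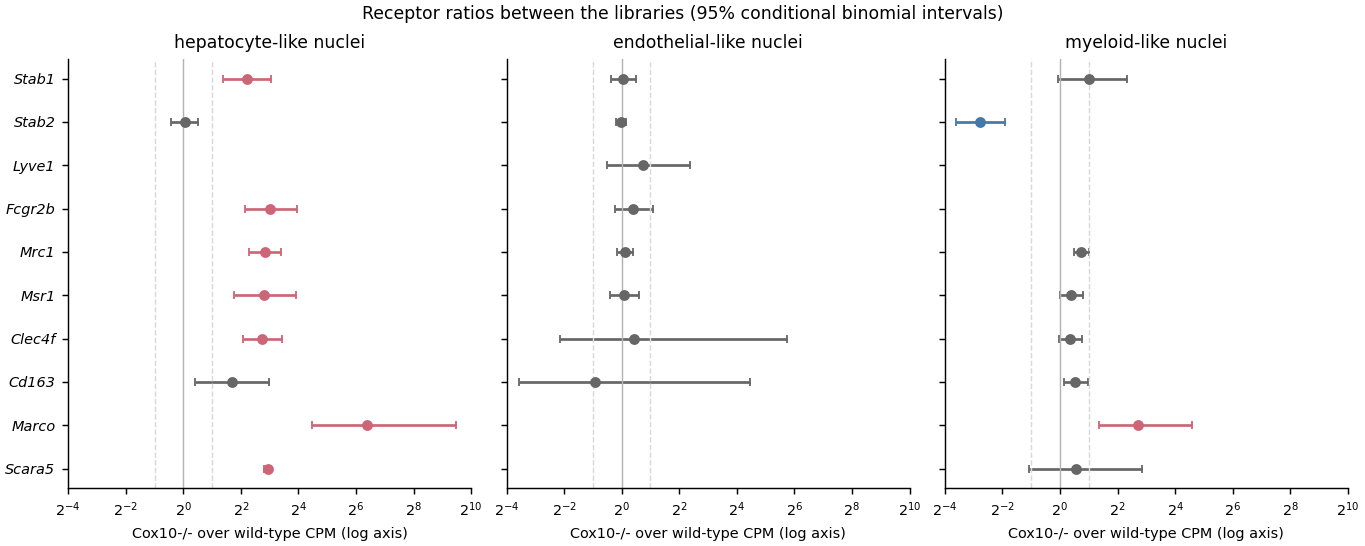
Ratio of Cox10-/- over wild-type CPM (log x axis) for each receptor with at least 20 UMIs in hepatocyte-like, endothelial-like and myeloid-like nuclei, with 95% conditional binomial intervals, where red marks a call as higher, blue a call as lower and grey no call; dashed lines mark 2-fold, and genes at 0 in the wild type have no point. All endothelial points are grey, Marco (6.55) and Stab2 (0.146) are called in myeloid-like nuclei, and 7 of 9 hepatocyte points are called as higher.

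In hepatocyte-like nuclei 7 of 9 tested receptors were called as higher in Cox10-/-, against 8.81% of 12560 genes higher and 12.1% in either direction. Apart from Scara5, these were genes of other lineages at low levels. Mrc1 was at 2.43 and 17.3 CPM, Clec4f at 1.66 and 11.04 CPM, Marco at 0.118 and 9.90 CPM, Fcgr2b at 0.947 and 7.61 CPM, Stab1 at 1.36 and 6.28 CPM and Msr1 at 0.710 and 4.95 CPM, wild type first. The Cox10-/- levels lay near those in stellate-like nuclei of the same library, which should also lack them, at 25.2, 18.9, 10.7, 4.85, 7.27 and 4.85 CPM in the same order with overlapping intervals. By its ratio, the stellate Mrc1 level was still 1.46 times (1.015 to 2.07) the hepatocyte one. The libraries differed alongside in the share of nuclei outside the hepatocyte-like class, 4.66% against 66.3%, and the part of that in these 6 ratios was not tested. Stab2 did not follow the 6, at 9.94 CPM (8.49 to 11.6) and 10.3 CPM (7.72 to 13.4).

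Stellate-like nuclei had 5 receptors with enough UMIs and none called, against 8.53% of 8773 genes (2.76% higher, 5.77% lower). Lymphoid-like nuclei had 2, Stab2 and Mrc1, with none called against 19.3% of 3451 genes (8.92% higher, 10.3% lower). Cholangiocyte-like nuclei had 3, with none called against 2.28% of 6176 genes (0.858% higher, 1.42% lower). The wild-type counts behind these were between 0 and 8 UMIs a gene, so no difference under several-fold was detectable at this depth.

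Scara5 was the receptor of hepatocyte-like nuclei. Wild-type nuclei had 40.1 CPM (37.2 to 43.3) and Cox10-/- nuclei 305 CPM (290 to 320), a ratio of 7.61 (6.95 to 8.33), with 9.94% and 37.9% of nuclei positive. After thinning to 1000 UMIs, which left out 4 and 61 nuclei, the shares were 3.603% (3.11 to 4.15) and 17.9% (16.1 to 19.8). In Cox10-/- the level was 3.62 times (2.85 to 4.68) that of cholangiocyte-like nuclei, at 84.2 CPM, and the remaining lineages were between 26.2 and 45.8 CPM. In the wild type the hepatocyte interval overlapped that of stellate-like nuclei, and no Scara5 was seen in 45 endothelial-like nuclei, where 0 allows up to 33.9 CPM.

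The 5 wild-type hepatocyte-like clusters were not alike in Scara5. Clusters 1, 2, 4 and 9 lay between 29.6 and 49.8 CPM, together 37.5 CPM. Cluster 11, with 150 nuclei led by Slc1a2 and Lgr5, genes of the hepatocytes around the central vein, was at 125.5 CPM (96.7 to 160), 3.35 times (2.55 to 4.34) the other 4. Glul, glutamine synthetase, which marks the innermost of those hepatocytes, was at 947.5 CPM in cluster 11 and between 34.0 and 86.6 CPM in the other 4. Over all wild-type hepatocyte-like nuclei Scara5 was at 51.8 CPM in those with a Glul UMI and 37.7 CPM in those without, a ratio of 1.38 (1.14 to 1.65).

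The Cox10-/- hepatocyte-like clusters were further apart. Cluster 7, with 778 nuclei, a median of 4457.5 UMIs and Meg3, Rian and Cyp2b10 among its leading genes, had Scara5 at 365 CPM (346 to 384), with 68.4% of nuclei positive. Cluster 5, with 960 nuclei, a median of 1174 UMIs and the acute-phase genes Saa1, Saa2 and Orm2 among its leading genes, had it at 117 CPM (98.7 to 138), with 13.3% positive. Cluster 7 was 9.09 times (8.29 to 9.97) the wild-type hepatocyte level, 3.12 times (2.63 to 3.72) cluster 5 and 2.91 times (2.26 to 3.79) cluster 11. Cluster 5 was 2.92 times (2.42 to 3.49) the wild type and did not differ from cluster 11 beyond counting error (0.932, 0.690 to 1.27). Glul was at 232 CPM in cluster 7 and 130 CPM in cluster 5, and Scara5 was at 338 CPM in Cox10-/- nuclei with a Glul UMI and 282 CPM in those without; at 1000 UMIs the shares ran the other way, 15.6% and 18.3%, so no order is read.

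**Figure D3:**
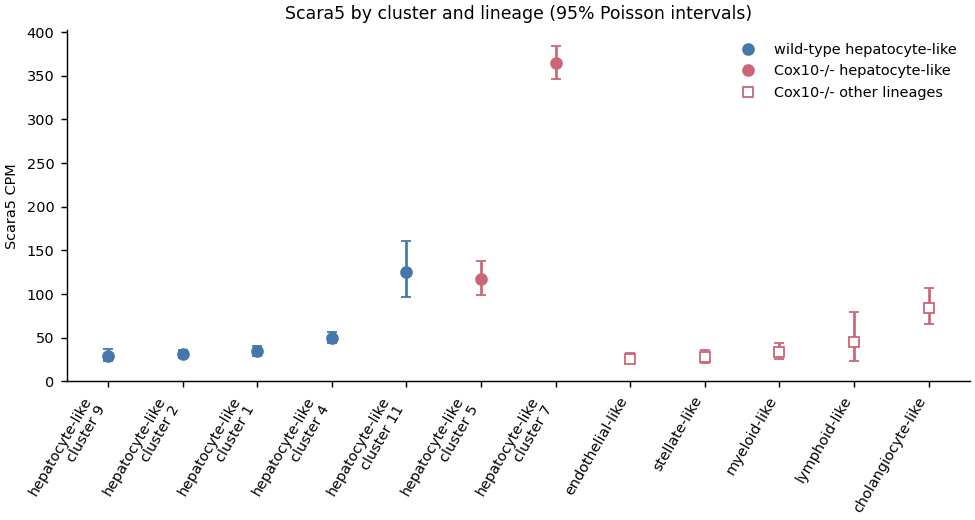
Scara5 in CPM (y axis) in each hepatocyte-like cluster of the wild-type (blue) and Cox10-/- (red, filled) libraries and in the other Cox10-/- lineages (open squares), with 95% Poisson intervals. Cluster 7 is highest at 365 CPM, wild-type cluster 11 and Cox10-/- cluster 5 lie close together at 125.5 and 117 CPM, and the other 4 wild-type clusters are at or under 49.8 CPM.

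Within the Cox10-/- endothelial-like nuclei, subclusters were told apart by zonal markers that are not receptors of the set. A central-vein-side subset (248 nuclei, led by Wnt2, Rspo3, Cdh13 and Thbd) and a portal-side or vascular subset (183 nuclei, led by Vwf, Adgrg6 and Slit2) were named, and 988 nuclei in 7 further subclusters were not. Of the named subsets, Stab1, Stab2 and Lyve1 were higher on the central side, and at this split Msr1 on the portal side. The unnamed nuclei lay nearer the central subset for Stab1 (564.5 CPM), Stab2 (3422 CPM) and Lyve1 (105 CPM). Unnamed subclusters exceeded the central subset in places, with Stab2 at 4038 and 4061 CPM and Lyve1 at 169 CPM (139 to 204). At this split the ratios of Stab1, Stab2 and Lyve1 therefore mainly set the portal-side or vascular subset apart. For Msr1 it was the central subset that lay lowest, at 214 CPM. Its unnamed subclusters ran from 286.5 to 644 CPM, beside 605 CPM portally, so Msr1 was not particular to the portal side. Stab2 was at 3927 CPM (3773 to 4087) centrally and 1579 CPM (1462 to 1702) portally, a ratio of 2.49 (2.28 to 2.71). Stab1 was at 594 and 252 CPM, a ratio of 2.36 (1.90 to 2.95).

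Lyve1 followed the stabilins, at 97.2 and 35.0 CPM, a ratio of 2.77 (1.56 to 5.26). Mrc1 differed little, at 1364 and 1137 CPM (1.20, 1.07 to 1.34), and Fcgr2b, at 324 and 262 CPM, not beyond counting error (1.24, 0.978 to 1.58). Msr1 ran against them, at 214 CPM (179 to 254) centrally, 422 CPM in the unnamed nuclei and 605 CPM (533 to 683) portally, 2.83-fold (2.29 to 3.52) higher on the portal side. Thinned shares kept that order, with Msr1 in 13.3%, 28.1% and 40.4% and Stab2 in 86.3%, 83.2% and 52.5% of nuclei. For Mrc1 they did not, at 58.9% centrally and 65.6% portally, so its small difference is not read as an order.

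At a coarser subclustering, chosen after seeing the data, the portal-side or vascular subset held 61 nuclei and the central-vein-side one 653, and the contrast of the stabilins grew: the central-over-portal ratio was 8.09 (6.49 to 10.2) for Stab2 and 4.71 (3.07 to 7.65) for Stab1. It was 2.06 (1.71 to 2.49) for Mrc1 and 1.95 (1.34 to 2.93) for Fcgr2b. That of Lyve1, 18.4 (3.27 to 731), rests on 1 portal-side UMI. Msr1 was at 399 CPM (369 to 430) centrally and 484 CPM (383 to 605) portally, a ratio of 0.823 (0.650 to 1.05), so its portal-side difference of the finer split was not beyond counting error here.

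**Figure D4:**
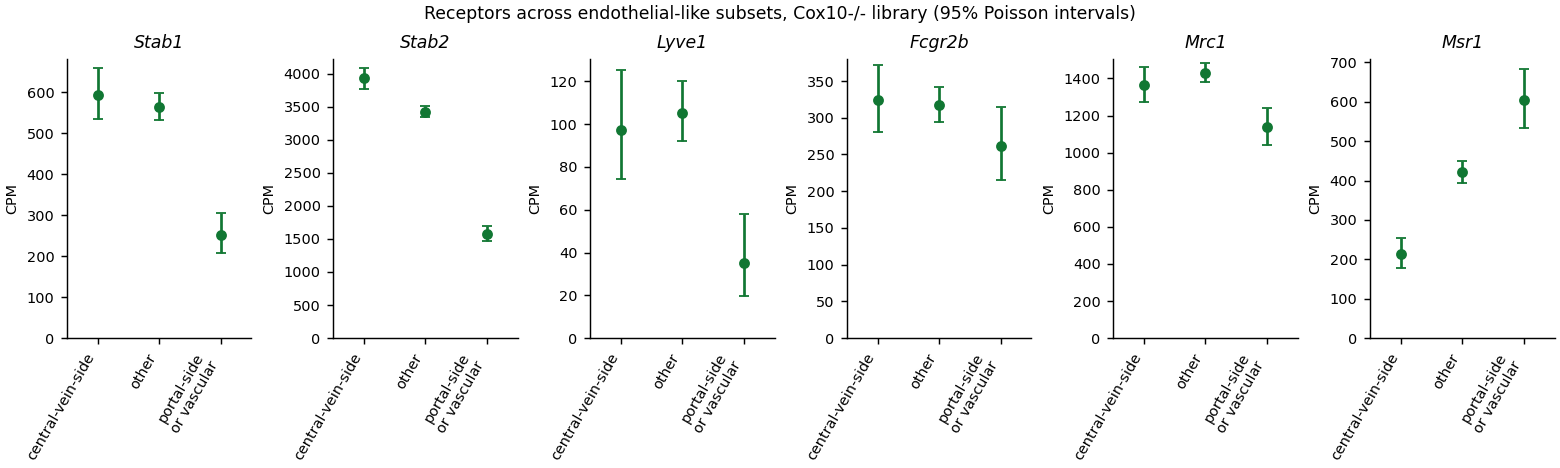
Levels of 6 receptors in CPM (y axis, a separate scale per gene) across central-vein-side, other and portal-side or vascular subsets of Cox10-/- endothelial-like nuclei (x axis), with 95% Poisson intervals. Stab2 falls from 3927 to 1579 CPM and Stab1 from 594 to 252 CPM from left to right, while Msr1 runs from 214 to 605 CPM.

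The Cox10-/- myeloid-like nuclei split into 5 subsets, none of which met the naming rule, so they are called by size or leading genes. The largest, 454 nuclei, had Cd5l, a Kupffer cell gene that is not among its leading genes, at 882 CPM and Ccr2, the monocyte chemokine receptor, at 4.27 CPM. Another, 73 nuclei, was led by Mmp12 and Gpnmb, genes of lipid- and debris-laden macrophages. A subset of 59 nuclei, with Ccr2 among its leading genes, had Ccr2 at 434 CPM and Cd5l at 277 CPM. Cd5l was at 672 CPM in the Mmp12-led subset and 929 CPM in the Top2a-led one described next, so it does not set the largest apart. A subset of 21 nuclei was led by Top2a and other mitosis genes, and the last, 11 nuclei, had Mlxipl and Erbb4 among its leading genes, with 81.8% of it among the highest doublet scores.

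Cd163 was at 724 CPM (677 to 775) in the largest subset, 635 CPM in the Top2a-led, 242 CPM in the Mmp12-led and 18.9 CPM (3 UMIs) in the Ccr2-high subset, a ratio of largest over Ccr2-high of 38.4 (13.1 to 186.5). Clec4f was at 707, 659, 405 and 88.1 CPM in the same subsets, with the ratio of largest over Ccr2-high at 8.03 (4.76 to 14.8). The largest and Top2a-led subsets did not differ beyond counting error in Cd163 (1.14, 0.866 to 1.53) or Clec4f (1.07, 0.819 to 1.43). Mrc1 was at 1911 and 1670 CPM in the first pair and at 910 and 931 CPM in the second, a step of 2.10-fold (1.81 to 2.46) from the largest to the Mmp12-led subset.

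Marco was at 210 CPM in the largest, 297 CPM in the Mmp12-led and 282 CPM in the Top2a-led subset, but 62.9 CPM in the Ccr2-high one, 3.34-fold (1.79 to 7.05) below the largest subset's level. At this split Msr1 was between 482 and 697 CPM, and the ratio of the largest subset to each of the other 3 had an interval that held 1. Fcgr2b ran the other way, at 138 CPM (86.7 to 209.5) in the Ccr2-high subset and 4.27 to 14.8 CPM in the other 3, 32.4 times (12.0 to 109.5) the level in the largest. In size alone this fold is not separated from that of Cd163, which ran in the opposite direction. Stab1 was also lower in the largest subset, at 96.5 CPM, than in the Mmp12-led, at 173 CPM (ratio 1.79, 1.19 to 2.64). The few Stab2 UMIs lay mainly in the Top2a-led subset, at 223.5 CPM against 7.69 CPM in the largest, but only 2 of its 21 nuclei held any. Of the 36 Stab2 UMIs in myeloid-like nuclei, 14 came from 1 nucleus. A finer subclustering gave, among others, subsets of 167, 130 and 97 nuclei. Msr1 was at 473 (401 to 554), 806 (724 to 895) and 484 CPM (404 to 576) in them, and Marco at 98.8, 314 and 223 CPM. The evenness of Msr1 and the Marco level of the largest subset therefore depend on the split.

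**Figure D5:**
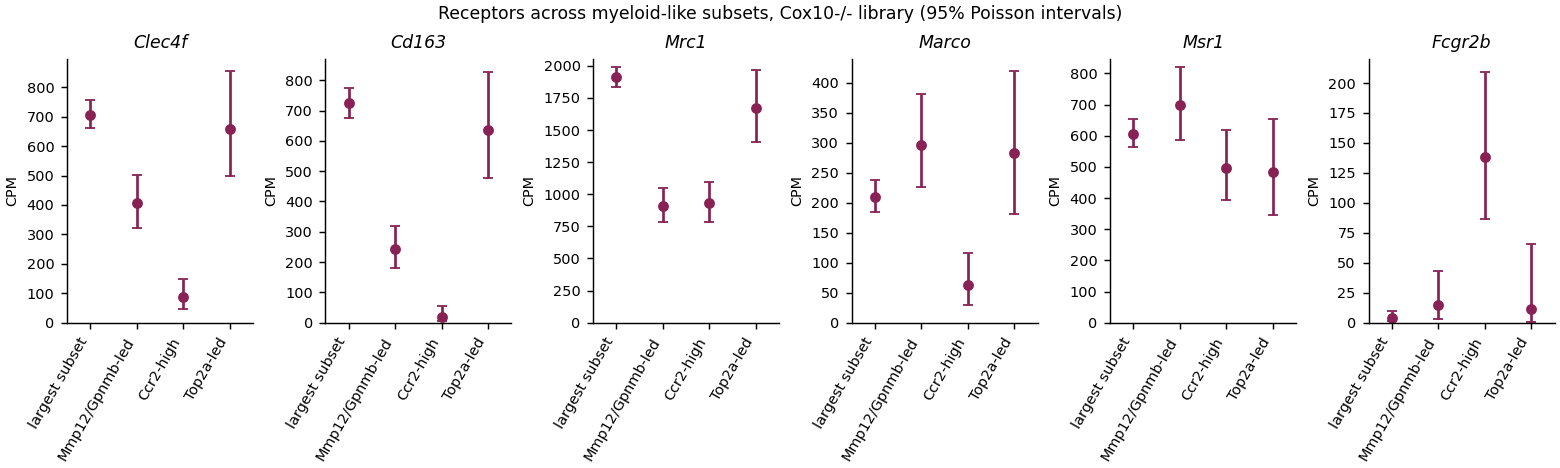
Levels of 6 receptors in CPM (y axis, a separate scale per gene) in 4 subsets of Cox10-/- myeloid-like nuclei called by size or leading genes (x axis), with 95% Poisson intervals. Cd163 and Clec4f are lowest in the Ccr2-high subset, at 18.9 and 88.1 CPM, where Fcgr2b is highest at 138 CPM.

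Unnamed clusters held further receptor signal. A cluster of 134 Cox10-/- nuclei with stellate and endothelial markers had Stab2 at 1287 CPM, Mrc1 at 951 CPM, Msr1 at 294 CPM and Clec4f at 144 CPM, and 21.5% of it ranked among the highest doublet scores. The unnamed Cox10-/- nuclei as a whole carried 9.63% of the library's Stab2 UMIs, 11.1% of those of Mrc1 and 11.01% of those of Fcgr2b. In the wild type the unnamed nuclei carried 44.85%, 34.03% and 49.35% in the same order. The wild-type endothelial-like nuclei carried less, at 32.89%, 26.11% and 27.27%.

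Genes with the most similar pattern were sought over 12 points, the 6 lineages of each library, by the Pearson correlation of log2(CPM + 1) among 10768 genes with at least 100 UMIs. These points share libraries and depth, so the values are descriptions. Clec4f was closest to Vsig4 (r = 0.995), the complement receptor of Kupffer cells, then Cd5l and Adgre1. Cd163 was closest to Epb41l3 (0.996), then Pla2g7 and C1qb. Msr1 was closest to Clec1b (0.995), a lectin found here at 182.5 CPM in Cox10-/- myeloid-like and 121 CPM in endothelial-like nuclei, then C5ar2 and Ifi207.

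Among the endothelial receptors, Stab2 was closest to Rasal2 (0.939), Cemip2 (0.929) and Sesn1. Cemip2 encodes a cell-surface protein of hyaluronan breakdown and stood at 1199 and 1734 CPM in wild-type and Cox10-/- endothelial-like nuclei. Stab1 was closest to Pecam1 (0.934), Arhgap31 and Arap3, Fcgr2b to Adgrl4 (0.926), Adam23 and Egfl7, and Lyve1 to Npr1 (0.981), Igfbp5 and Tie1. Mrc1 was closest to Pecam1 (0.953), Cd38 and Atp8a1. Marco was closest to the MHC class II genes H2-Aa (0.965) and H2-Eb1 and the cathepsin gene Ctss, and Scara5 to Tedc2 (0.969), Slc3a1 and Actr6.

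Other genes of uptake were counted by list, without a test of any list. Of the other scavenger receptors, 13 of 17 reached 20 UMIs. Among these Cd36, a fatty acid and lipoprotein receptor, was highest in Cox10-/- endothelial-like nuclei, at 371 CPM (wild type 362 CPM), and Colec12 in cholangiocyte-like nuclei at 1485 CPM. None of the 8 tested in endothelial-like or the 9 tested in myeloid-like nuclei was called, against 1.31% and 6.54% of all genes. The list median of the log2 ratio was 0.05 in endothelial-like and 0.18 in myeloid-like nuclei, beside -0.01 and 0.01 over all genes tested. In the hepatocyte-like nuclei 2 of 8 were higher, against 8.81% of all genes, among them Cd36 at 4.02 and 35.2 CPM. Like the 6 receptors above, Cd36 is highest in another lineage, and its Cox10-/- level lay near that of stellate-like nuclei, at 30.6 CPM; the part of RNA from other lineages in its ratio was not tested.

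None of 10 other C-type lectin receptors tested was called in endothelial-like nuclei, nor any of 5 in myeloid-like nuclei, against 1.31% and 6.54% of all genes. Clec4g, a lectin of the sinusoidal endothelium, was at 339 and 305 CPM in endothelial-like nuclei. Of 10 Fc and complement receptors, 8 were highest in Cox10-/- myeloid-like nuclei, where none of 10 was called, against 6.54% of all genes. The list median there was 0.96 on the log2 scale, beside 0.01 over all genes. Vsig4 was at 472 and 824 CPM there (ratio 1.75, 1.35 to 2.30). In hepatocyte-like nuclei 3 of 4 Fc and complement receptors and 1 of 6 other C-type lectin receptors were higher, against 8.81% of all genes. These genes of other lineages were at low levels. Vsig4 was at 1.24 and 11.04 CPM, Fcgr4 at 0.473 and 2.855, Fcer1g at 1.065 and 3.81 and Clec4g at 0.769 and 4.38, wild type first. In Cox10-/- stellate-like nuclei they were at 13.1, 3.395, 4.36 and 5.82 CPM in the same order. The part of RNA from other lineages in these ratios was not tested.

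Among 10 tested genes of apoptotic cell uptake in myeloid-like nuclei, 2 were higher and 1 lower in Cox10-/-, against 1.96% higher and 4.58% lower over all genes, and the list median was 0.46 on the log2 scale, beside 0.01. Mertk, the kinase receptor for dying cells, was at 928 and 1936 CPM, 2.09-fold (1.74 to 2.52) higher, and Elmo1, a partner of the engulfment machinery, at 472 and 1066 CPM, 2.26-fold (1.75 to 2.97) higher. Gas6, named after its value was seen, as was Ctsl, and which encodes a ligand of the MERTK family, was the lower one. In endothelial-like nuclei Mertk was at 475 and 760 CPM (1.60, 1.18 to 2.22), and none of the 10 tested was called, against 1.31% of all genes. In hepatocyte-like nuclei 4 of 9 tested were higher, against 8.81% of all genes. No gene of this list with 20 UMIs was highest in Cox10-/- hepatocyte-like nuclei. The part of RNA from other lineages in these ratios was not tested.

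The iron list held the ligands of the CD163 and heme uptake system. The haptoglobin gene Hp and the hemopexin gene Hpx, made by hepatocytes, were at 404 and 1343 CPM and at 391 and 1633 CPM in hepatocyte-like nuclei, 3.32-fold (3.21 to 3.44) and 4.17-fold (4.04 to 4.31) higher in Cox10-/-. Both were also called as higher in endothelial-like, stellate-like, myeloid-like and lymphoid-like nuclei, and Hpx in cholangiocyte-like nuclei too; as secreted hepatocyte products, their levels of 809 to 1462 CPM in those Cox10-/- nuclei stood beside the hepatocyte marker sums given above. The iron exporter Slc40a1 was at 1153 and 1911 CPM in myeloid-like nuclei (1.66, 1.41 to 1.97; not called). Fth1, which encodes the ferritin heavy chain, was 2.44-fold (2.29 to 2.60) higher in hepatocyte-like and 3.81-fold (2.21 to 7.20) higher in myeloid-like nuclei.

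Hyaluronan synthesis and breakdown genes had 0 of 5 called in endothelial-like and 0 of 7 in hepatocyte-like nuclei, against 1.31% and 12.1% of all genes. Of 23 clathrin and lysosome genes, 9 were highest in Cox10-/- endothelial-like and 7 in myeloid-like nuclei. The clathrin adaptor gene Dab2 was at 600 and 536 CPM in endothelial-like nuclei and at 0.710 and 2.28 CPM in hepatocyte-like ones. In endothelial-like nuclei 1 of 23, the cathepsin gene Ctsl, was higher in Cox10-/-, against 0.632% of all genes, and in myeloid-like nuclei 2, Ctsb and Ctsl, against 1.96%, with Ctsb at 371 and 808 CPM. The list median was 0.45 on the log2 scale in endothelial-like and 0.35 in myeloid-like nuclei, beside -0.01 and 0.01 over all genes. In hepatocyte-like nuclei 6 of 23 were higher, against 8.81% of all genes, with a list median of 0.52 beside -0.02. The part of RNA from other lineages in these was not tested.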

How the data were processed

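The deposited table holds raw counts, UMIs per gene and nucleus, with no normalization by the authors. Cell Ranger 7.0 and the build mm10 are named in the submitters' processing notes. The column names mark the libraries as wild type and knockout. All deposited nuclei were used, each with 601 to 3999 genes and under 20% mitochondrially encoded UMIs; how these limits arose, and whether introns counted, is not given in the sources used here.

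Counts were clustered with scanpy 1.11.5 (2000 variable genes, 30 components, 15 neighbours, Leiden resolution 1.0), leaving out the receptors and the receptor lists. A non-hepatocyte lineage needed a median log2 marker excess of 2 with every other class under 1, at least 3 markers and a leading marker 8-fold above the rest; a hepatocyte cluster needed an excess above 0 with the others under 1. These limits were set after seeing the data. Doublets were not removed; Scrublet scores served an alternative. The receptors and lists were chosen with earlier results of these data known. Named genes are the 10 receptors, up to 4 genes of each list by highest Cox10-/- CPM, and the 3 closest in pattern; genes named after their values were seen are marked.

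Levels are CPM of summed UMIs. Intervals at 95% are exact (Poisson, Clopper-Pearson, conditional binomial), and a count of 0 was given a limit of 3 counts. The code was tested on simulated data. Coordinates are from GENCODE vM21. Clec7a and Tmem2, a list entry also known as Cemip2, were not analysed here under those symbols. TMM (edgeR 4.0.16) and DESeq2 1.42.0 factors were alternatives. One of the gene lists is not reported here.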

Additional observations from a re-analysis of the deposited data

How the results depend on the processing

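No paired analysis was possible because each genotype has 1 library, and leaving out a replicate is not possible either. The lineage in which each of the 10 receptors was highest in Cox10-/- stayed the same for at least 9 under the 9 alternatives run; the exception was Mrc1, highest in endothelial-like nuclei with a limit of 10% mitochondrially encoded UMIs (1511 against 1148 CPM) and by the share at 1000 UMIs. Of 273 alternative ratios of single receptors, 261 kept their side of the call, 11 gained a call, 1 lost it and none reversed; of 90 alternative levels and shares, 45 moved beyond their counting interval. With at least 100 UMIs required, the count called fell from 7 to 2 (Mrc1, Scara5) in hepatocyte-like and from 2 to 1 (Marco) in myeloid-like nuclei, fewer genes being tested. At Leiden resolution 0.5 the myeloid count was 1 and at resolution 2.0 the stellate count was 1 (Stab2, ratio 0.0864), as it was without the highest doublet scores (0.122); the cause was not tested. With the mean over nuclei, where the fold alone made a call, counts were 2 in endothelial-like (Marco and Scara5, both at 0 in the wild type), 3 in stellate-like, 2 in lymphoid-like, 3 in myeloid-like (Fcgr2b gained) and 8 in hepatocyte-like nuclei (Cd163 gained). With no filter on low counts the hepatocyte count was 8 (Lyve1 gained). Counting the mixed cluster as endothelial gave 6, where 6.37% of all genes were called as higher. TMM moved the median of all genes by over 0.1 only in lymphoid-like nuclei (-0.17, log2). Without the shallow cluster 5 the hepatocyte count stayed 7, with Scara5 at 9.05-fold. A limit of 10% mitochondrially encoded UMIs left 0 wild-type endothelial-like, 2 stellate-like, 3 myeloid-like and 7 lymphoid-like nuclei, so it gave no ratio there, nor did 1000 genes per nucleus in stellate-like nuclei, with 8 wild-type nuclei. Depth limits mainly the wild type: its 45 endothelial-like nuclei held 88389 UMIs and its 39 myeloid-like nuclei 129273.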
